A study of Mus musculus with 8 samples.

Results

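In 8 libraries of mouse bone marrow-derived mesenchymal stem cells, 10 genes of glutathione-dependent detoxification and of the NRF2 response were followed. They are the membrane-bound glutathione transferase genes Mgst1, Mgst2 and Mgst3, the soluble transferase genes Gsta4 and Gstm1, the glutathione synthesis genes Gclc and Gclm, and the oxidoreductase genes Nqo1, Hmox1 and Txnrd1. The members were picked by symbol, and all 10 were found among the 23500 genes of the tables, as 13 transcript entries summed by symbol. All 10 also passed the filter on low values, so none was left out of the 11162 genes tested. The set was proposed with the FPKM values and the cFos and Luc differences of these same libraries in view, so the members' own differences are given as a description, and the counts of members past a threshold support nothing.

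Every library came from cells that lack p53, the tumour suppressor encoded by Trp53. The cells were grown as 4 lines, each started from 1 clone and numbered 2, 4, 8 and 12, and were kept below passage 20. Each line was transduced with a retrovirus for luciferase (Luc), an insect enzyme that serves as the control, or with a retrovirus for cFos, the product of Fos and a subunit of the transcription factor AP-1. There were thus 4 Luc and 4 cFos libraries of polyadenylated RNA, 1 of each per clone, with no repeat of any clone and virus, and "Luc 8" below is the Luc library of clone 8. Values are FPKM, which count fragments relative to transcript length and library size, and group values are mean ± SD over the 4 clones (n = 4), a spread between clonal lines.

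Glutathione is a small thiol that cells use to neutralise reactive compounds and peroxides. Glutamate-cysteine ligase makes its precursor, glutathione transferases join it to electrophiles, and glutathione reductase regenerates it. NRF2, encoded by Nfe2l2, is a transcription factor that pairs with small MAF proteins and binds antioxidant response elements (AREs) near genes of this kind. KEAP1 holds NRF2 in the cytoplasm for degradation until oxidants or electrophiles modify it, and BACH1 competes for the same elements. The ARE and the AP-1 site share part of their letters, and cFos belongs to the same broad family of basic leucine zipper proteins as NRF2.

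Coverage times transcript length, summed over entries, gave 6.93 to 9.14 gigabases of aligned sequence in a library. Fos was at 41.1 to 302 FPKM in Luc and 505 to 1019 in cFos, and the highest Luc value was that of Luc 8, with 76.2 as the next; its part in the differences of clone 8 given below was not tested. Of 10 marrow stromal markers, 7 to 9 reached 1 FPKM in each library, with the collagen genes Col1a1 and Col1a2 at 831 FPKM or more throughout. The mesenchymal filament gene Vim rose, with 1481 ± 362 FPKM in Luc and 4893 ± 1394 in cFos (limma adjusted p = 0.00676), as did Pdgfrb, a growth factor receptor, with 86.8 ± 16.2 and 147 ± 28.6 (0.0442). Of the 10 markers, 3 (Pdgfrb, Vim and Nt5e) were higher in cFos in all 4 clones and 0 were lower in all 4. The rest were mixed, and the shares of genes tested were 15.3% and 20.9%. Those shares are over genes that passed the filter on low values, which Nt5e did not. Luc 8 stood apart in Ly6a, at 9.59 FPKM beside 92.2 to 252 in the other libraries, and in Vcam1, at 170 beside 14.3 to 38.5. The surface markers Thy1, Eng and Nt5e, often used to define these cells, were under 1 FPKM in 5, 4 and 5 of the 8 libraries. Markers of endothelium and epithelium summed to at most 0.432 and 0.696 FPKM in any library.

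The 10 genes did not move as a block between the arms. Mgst3 was higher in cFos in all 4 clones, Mgst1 and Hmox1 were lower in all 4, and the other 7 differed in direction between clones. The Mgst1 values of clone 12 lay within each other's limits as the authors give them, so that its lower value there is not a resolved difference. The same direction in all 4 clones was thus seen for 3 of 10 members, and for 36.2% of all genes tested, 15.3% higher and 20.9% lower. The Luc and cFos values overlapped for every member, while they did not overlap for 13.7% of genes tested, 5.86% higher and 7.8% lower in cFos. With limma on log2(FPKM + 0.5) and the virus as the only term, 0 of 10 members passed an adjusted p of 0.05, where 5.55% of genes did, and 2 of 10 (Mgst3 and Hmox1) lay under an unadjusted p of 0.05, where 20.1% of genes did. With the clone added as a block, since both libraries of a clone come from the same line, Mgst3 and Hmox1 passed, 2 of 10 members beside 8.79% of genes. The median log2 difference of the members was 0.06, and -0.02 to 0.11 with single libraries left out, beside -0.06 over all genes tested, and the median absolute difference was 0.42 beside 0.21. In RNA from whole cultures, fewer cells that express a gene and less RNA per cell cannot be told apart.

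**Figure D1:**
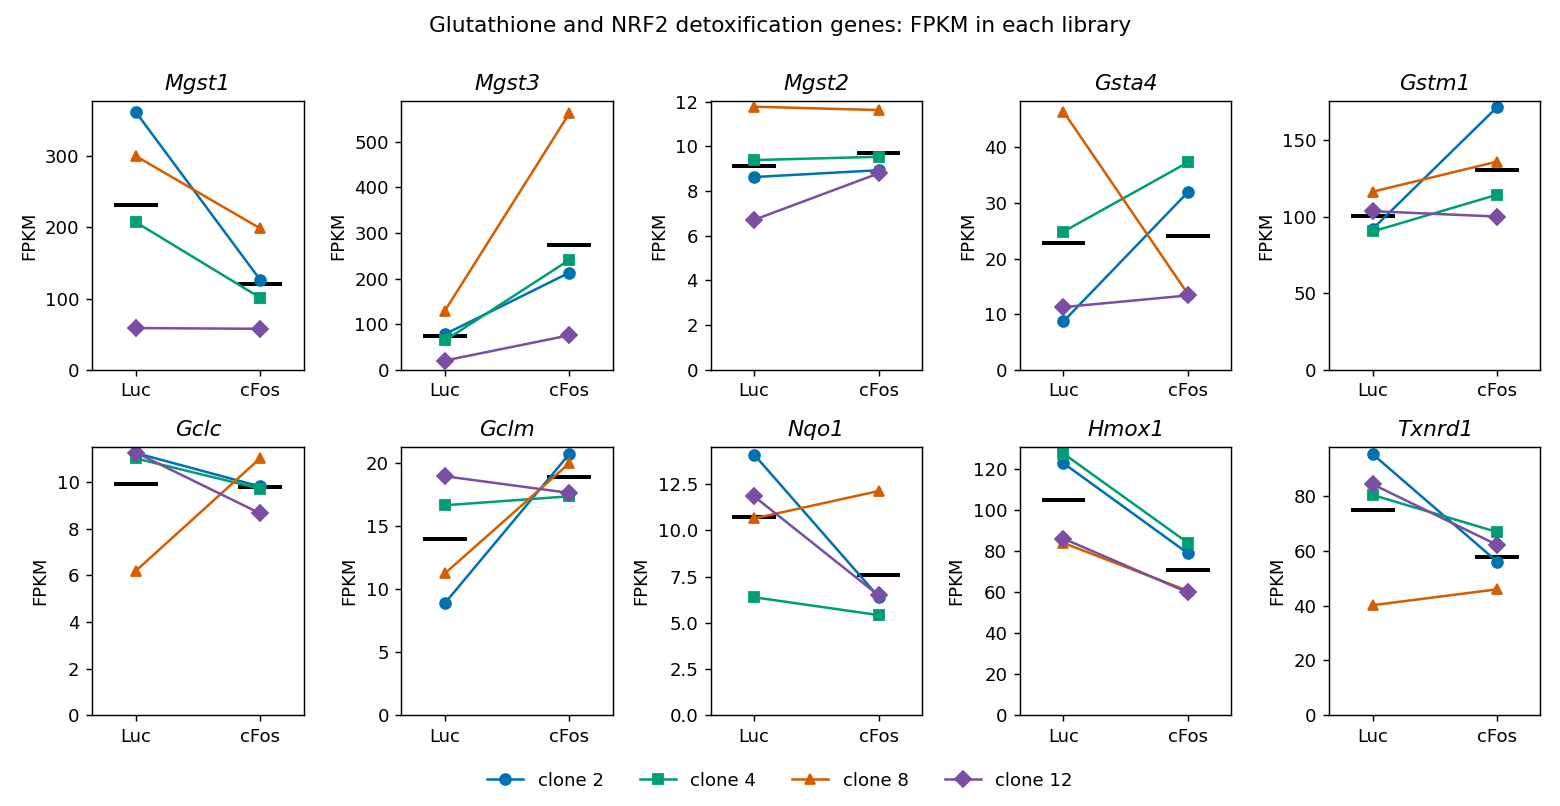
FPKM (vertical axes, each from 0) of the 10 genes in the Luc and cFos libraries, 1 coloured line per clone joining its pair of libraries, with black bars at the mean of each arm (n = 4). The lines of Mgst3 all go up and those of Mgst1 and Hmox1 all go down, from 20.4 to 75.6 FPKM for Mgst3 in clone 12 and from 129.5 to 562 in clone 8.

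Mgst3 encodes a membrane-bound enzyme that can reduce lipid peroxides with glutathione and also joins leukotriene precursors to it (chromosome 1, 169302515 to 169323928, mm9). It was at 78.1, 64.3, 129.5 and 20.4 FPKM in Luc from clones 2, 4, 8 and 12, and at 213, 241, 562 and 75.6 in cFos. Every clone was higher with cFos, while cFos 12 lay below Luc 2 and Luc 8, so that the arms overlapped. The cFos value was 2.73, 3.75, 4.34 and 3.71 times the Luc value of the same clone. The log2 difference between the arm means was 1.83 with an SE of 0.67 in the model of virus alone and of 0.14 with the clone as a block. Its absolute size lay at percentile 97.2 of all genes tested, and the difference was 1.31 without Luc 12 and 2.33 without cFos 12.

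Mgst1 encodes the abundant membrane transferase of the endoplasmic reticulum and outer mitochondrial membrane (chromosome 6, 138089058 to 138105273). Luc clones 2, 4, 8 and 12 held 362, 207, 300.1 and 58.6 FPKM, and the cFos libraries 127, 101, 199 and 57.6. The Luc value was 2.86, 2.05 and 1.51 times the cFos value in clones 2, 4 and 8, and 1.02 times it in clone 12. The lowest value of both arms was that of clone 12. The log2 difference was -0.79 (SE 0.57, and 0.24 with the clone as a block), which did not pass in either model. It was -1.36 without Luc 12 and -0.48 without Luc 2 or cFos 12.

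Which of these sister genes was the more abundant differed between the arms in every clone. Per length, Mgst3 stood at 0.216, 0.310, 0.431 and 0.348 of the Mgst1 level in Luc clones 2, 4, 8 and 12, and at 1.68, 2.38, 2.83 and 1.31 of it in cFos. Mgst1 was thus the higher of the pair in all 4 Luc libraries and Mgst3 in all 4 cFos libraries. The share of Mgst3 in the summed FPKM of Mgst1, Mgst2 and Mgst3 was 23.3 ± 4.89% in Luc and 63.9 ± 8.58% in cFos. The sum itself was 0.777 of the Luc value in cFos 2 and 1.25, 1.75 and 1.66 times it in cFos 4, 8 and 12. This ratio was chosen after the values were seen and was not tested.

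**Figure D2:**
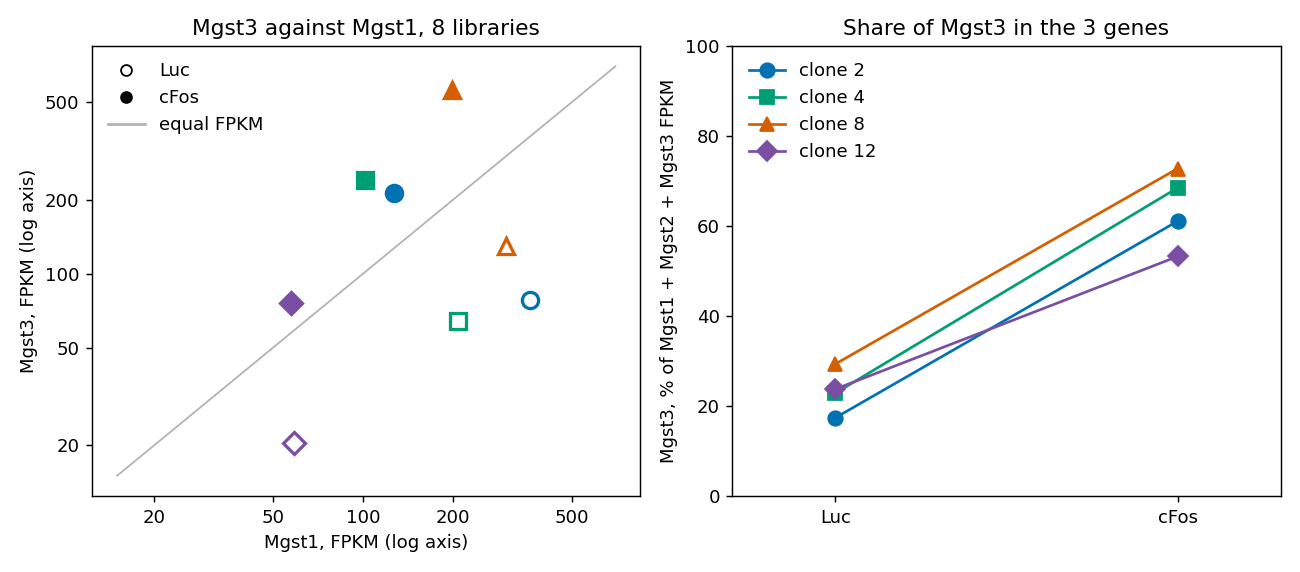
Left, Mgst3 against Mgst1 in FPKM on log axes, open symbols Luc and filled symbols cFos, coloured and shaped by clone, with a line where both are equal. Right, Mgst3 as a percentage of the summed FPKM of Mgst1, Mgst2 and Mgst3, joined within each clone: it ran from 17.4 to 29.3% in Luc and from 53.3 to 72.8% in cFos.

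The sequence before the start of Mgst3 and Mgst1 is shown, with capitals for letters that match an ARE core (TGACNNNGC) or an AP-1 site (TGACTCA) on either strand. The windows searched run from 250 bases before to 50 after each RefSeq start of build GRCm38.p6, and the bases before the start are printed. Mgst3 has 1 start in that table, on the minus strand (chr1:167393842-167394091), and Mgst1 has 2, of which the one shown (chr6:138140277-138140526, plus strand) holds a match.
Mgst3: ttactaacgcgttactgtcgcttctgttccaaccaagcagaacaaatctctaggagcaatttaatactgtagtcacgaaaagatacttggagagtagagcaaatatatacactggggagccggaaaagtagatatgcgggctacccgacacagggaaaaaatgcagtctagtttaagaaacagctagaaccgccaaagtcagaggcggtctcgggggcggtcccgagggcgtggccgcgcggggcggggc
Mgst1: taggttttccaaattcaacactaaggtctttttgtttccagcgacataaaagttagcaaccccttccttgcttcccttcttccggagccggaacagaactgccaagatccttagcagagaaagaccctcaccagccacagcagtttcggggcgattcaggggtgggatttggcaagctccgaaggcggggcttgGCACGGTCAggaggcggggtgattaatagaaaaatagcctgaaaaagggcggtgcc
The Mgst3 window held neither motif. The Mgst1 match was an ARE core on the opposite strand, 56 to 48 bases before the start. Which Mgst1 start the deposited transcript uses was not determined here.

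Of the 10 members, 7 had windows in the RefSeq table, 11 windows in all, and Gsta4, Gclc and Hmox1 were not in it. An ARE core was in 3 of the 11 windows and in 12.4% of all 32851 windows of the table. An AP-1 site was in 1 of the 11, that of Mgst2, and in 5.20% of all windows. The letters around the other matches are printed to show where they lie, in 60-base stretches of Gclm (chr3:122245398-122245457), the middle of 3 Txnrd1 starts (chr10:82859089-82859148) and Mgst2 (chr3:51661102-51661161), all on the plus strand.
Gclm: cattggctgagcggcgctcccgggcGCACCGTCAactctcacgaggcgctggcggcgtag
Txnrd1: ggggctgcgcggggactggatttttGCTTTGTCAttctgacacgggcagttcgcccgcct
Mgst2: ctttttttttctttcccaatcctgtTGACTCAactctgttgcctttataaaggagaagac
The ARE core letters lay on the opposite strand 134 to 126 bases before the start of Gclm and 92 to 84 bases before that of Txnrd1, and the AP-1 letters 52 to 46 bases before that of Mgst2. A match is a stretch of letters and not a shown binding site, and its part in the differences was not tested. A window without a match does not show that the gene has no such letters outside the window.

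Mgst2 encodes a further membrane enzyme that makes leukotriene C4 (chromosome 3, 51465115 to 51486597), and its values were nearly level between the arms. It was at 8.63, 9.39, 11.8 and 6.72 FPKM in Luc from clones 2, 4, 8 and 12, and at 8.94, 9.54, 11.6 and 8.80 in cFos. The log2 difference was 0.10 (SE 0.18), and the order of the clones, 8 above 4 above 2 above 12, was the same in both arms. The authors' confidence limits, 14.9 to 19.4% of the value on either side, overlapped between the arms in each clone, the only member for which they did so in all 4 among the 9 with a single entry.

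Of the soluble transferases, Gsta4, whose product clears 4-hydroxynonenal, a toxic product of lipid peroxidation, had opposite differences among the clones (chromosome 9, 78039773 to 78057156). It was at 8.70, 24.9, 46.5 and 11.3 FPKM in Luc from clones 2, 4, 8 and 12, and at 31.9, 37.3, 13.7 and 13.4 in cFos. Clone 2 was 3.67-fold higher with cFos, clone 4 1.501-fold and clone 12 1.19-fold, and clone 8 was 3.40-fold lower. The mean log2 difference was 0.23 (SE 0.54), and it became 0.66 without Luc 8 and -0.12 without Luc 2.

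Gstm1 encodes a mu-class transferase of broad substrate range (chromosome 3, 107815168 to 107820891). Luc clones 2, 4, 8 and 12 were at 91.9, 90.3, 116 and 103.5 FPKM, and cFos at 171, 114, 136 and 100. Clone 2 was 1.86-fold higher with cFos, clones 4 and 8 1.26-fold and 1.17-fold, and clone 12 was 0.966 of its Luc value, with a mean log2 difference of 0.35 (SE 0.18), and 0.21 without cFos 2. The mu-class genes are close paralogs, and the split of reads between Gstm1 and its neighbours is uncertain. Gstm2, the other mu-class gene at a like level, was at 87.8 ± 21.8 FPKM in Luc and 92.4 ± 12.9 in cFos.

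Glutathione synthesis rests on Gclc, the catalytic subunit of glutamate-cysteine ligase, and Gclm, its modifier subunit. Gclc (chromosome 9, 77602342 to 77642296) was at 11.2, 11.0, 6.18 and 11.3 FPKM in Luc from clones 2, 4, 8 and 12, and at 9.81, 9.71, 11.0 and 8.65 in cFos. Luc 8 stood below the other 7 libraries, and clone 8 was the 1 clone that was higher with cFos, 1.78-fold, where the others were 1.13-fold to 1.301-fold lower. The mean log2 difference was 0.02 (SE 0.20), and -0.19 without Luc 8.

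Gclm (chromosome 3, 121948475 to 121970133) was at 8.90, 16.7, 11.3 and 18.9 FPKM in Luc from clones 2, 4, 8 and 12, and at 20.7, 17.4, 20.0 and 17.6 in cFos. Clones 2 and 8, the lowest in Luc, were 2.33-fold and 1.78-fold higher with cFos, while clones 4 and 12 were at 1.04 and 0.930 of their Luc values. The Gclm libraries ran over a 2.13-fold range in Luc and a 1.19-fold range in cFos, and the mean log2 difference was 0.48 (SE 0.23), and 0.30 without Luc 2. Per length, Gclc stood at 1.26 of the Gclm level in Luc 2 and at 0.473 to 0.661 of it in the other 7 libraries.

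Among the oxidoreductases, Hmox1, the inducible heme oxygenase that breaks heme down to biliverdin, iron and carbon monoxide, differed by a similar amount in each clone (chromosome 8, 77617517 to 77624492). It was at 123, 128, 84.0 and 86.2 FPKM in Luc from clones 2, 4, 8 and 12, and at 79.0, 84.1, 60.7 and 59.9 in cFos. Each clone was lower with cFos, by 1.56-fold, 1.52-fold, 1.38-fold and 1.44-fold, while cFos 4 lay just above Luc 8. The log2 difference was -0.55 with an SE of 0.19 in the model of virus alone and of 0.10 with the clone as a block. Macrophages also express this gene, and 9 blood cell markers in the tables summed to 4.06 to 5.86 FPKM in Luc and 2.13 to 4.46 in cFos. Of these 9, 3 were lower in cFos in all 4 clones and 0 were higher in all 4, beside 20.9% and 15.3% of genes tested. Those shares are over genes that passed the filter on low values. Only 1 to 3 of the 9 markers reached 1 FPKM in a library, so the sets are unlike. The markers lower in all 4 clones were Lyz2 at 0.828 ± 0.703 FPKM in Luc and 0.0676 ± 0.0722 in cFos, Cd74 at 2.26 ± 0.843 and 0.978 ± 0.922, and Fcer1g at 0.207 ± 0.126 and 0.0803 ± 0.0345. The other markers of the list did not go the same way in all 4 clones. Tyrobp was listed at 0 in every library, Adgre1 was at most at 0.00937 FPKM and Ptprc at 0.0718. The part of such cells in the Hmox1 difference was not tested.

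Nqo1 encodes a quinone reductase that is a standard readout of NRF2 activity (chromosome 8, 109912125 to 109927105). Luc clones 2, 4, 8 and 12 were at 14.1, 6.39, 10.7 and 11.8 FPKM, and cFos at 6.42, 5.42, 12.1 and 6.49. It was 2.197-fold, 1.18-fold and 1.82-fold lower with cFos in clones 2, 4 and 12 and 1.14-fold higher in clone 8, with a mean log2 difference of -0.48 (SE 0.29). The authors' limits parted the arms in clones 2 and 12 only.

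Txnrd1 encodes the cytosolic thioredoxin reductase, a selenoprotein that keeps thioredoxin reduced (chromosome 10, 82296696 to 82360469). Its 4 entries summed to 95.1, 80.3, 40.1 and 84.2 FPKM in Luc from clones 2, 4, 8 and 12, and to 56.0, 66.8, 45.9 and 62.1 in cFos. Luc 8 and cFos 8 were the lowest of their arms, and clone 8 was 1.14-fold higher with cFos where clones 2, 4 and 12 were 1.70-fold, 1.20-fold and 1.36-fold lower. The mean log2 difference was -0.32 (SE 0.26), with -0.59 without Luc 8 and -0.18 without Luc 2. Txnrd1 has 3 starts, 25255 and 1135 bases apart in the deposited entries and in RefSeq alike, and the 2 entries of the middle start held 97.2 to 99.0% of its FPKM in Luc and 98.3 to 98.8% in cFos.

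**Figure D3:**
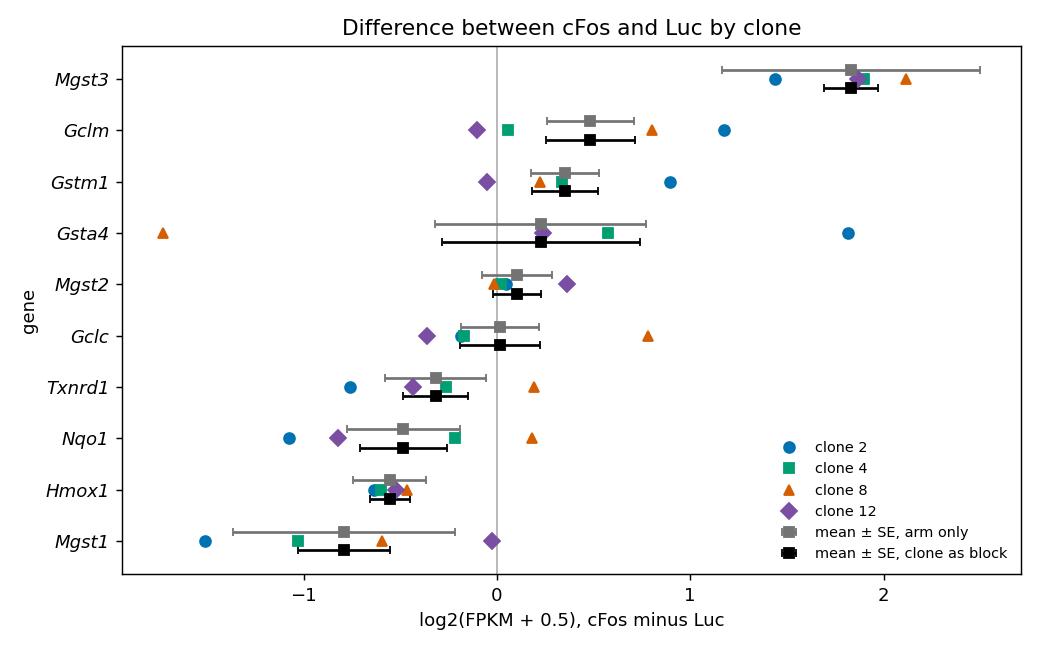
Difference of log2(FPKM + 0.5) between the cFos and the Luc library of each clone (coloured symbols) for the 10 genes, ordered by the mean, with the limma mean ± SE in the model of virus alone (grey) and with the clone as a block (black). The symbols of Hmox1 lie close together near -0.55, those of Mgst3 between 1.44 and 2.11, and those of Gsta4 spread from -1.73 to 1.82.

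How the clones compare was examined by sharing each gene's variation over the 8 libraries, on the log2 scale, between virus, clone and the rest. Over all genes tested the virus took 41.6%, the clone 40% and the rest 18.4%. The clone has more terms in this split than the virus, and can take a larger share for that alone. For Mgst3 the clone took 53.4% and the virus 45.8%, and for Hmox1 44.1% and 55.1%, which left 0.814% and 0.767% to the rest. The clone took 83.6% for Mgst2, 73.7% for Mgst1 and 66.3% for Txnrd1. The rest, in which unlike responses of the clones and variation between libraries cannot be told apart, took 74.8% for Gclc, 60.9% for Gsta4 and 45.2% for Gclm. These shares describe the values on which the members were compared, and with 1 library per clone and virus the rest could not be divided further.

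When the clone terms were tested together by limma's F test, 1 of 10 members, Mgst3, passed, where 0.484% of genes did. Its clone means over both arms were 146, 153, 346 and 48.0 FPKM in clones 2, 4, 8 and 12, so that clone 8 was highest, clone 12 lowest, and clones 2 and 4 near each other. Mgst1 had its lowest clone mean in clone 12 too, at 58.1 FPKM beside 154 to 249 in the others. Clone 8 had the lowest clone mean of Txnrd1, at 43.0 FPKM beside 73.1 to 75.6, and the highest of Mgst2 and Nqo1. Clone 8 differed in direction from all 3 other clones in 5 of 10 members, Mgst2, Gsta4, Gclc, Nqo1 and Txnrd1, and in 15.5% of genes tested. Luc 8 was the lowest of the Luc libraries for 3 members, Gclc, Hmox1 and Txnrd1, and for 37.1% of genes tested. For Mgst2 the difference within clone 8, 0.988 of the Luc value, was within the authors' limits.

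The rest of the pathway was examined in 7 lists that hold none of the 10 members, 116 genes in all, of which 104 were tested. In limma with the virus as the only term, 1 rose, 2 fell and 101 did not pass. When the clone was a block, 8 rose and 4 fell. Over all genes tested, 2.92% rose and 2.62% fell, and with the block 4.51% and 4.28%.

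The regulators of NRF2 gave no call. Of 14 tested, 0 passed in either limma model, beside 5.55% of genes tested with the virus alone and 8.79% with the block. In a list this short, shares of that size leave few genes to be called. Under an unadjusted p of 0.05 lay 5 of the 14, beside 20.1% of genes tested. Nfe2l2 itself was at 37.2, 33.7, 29.7 and 34.9 FPKM in Luc from clones 2, 4, 8 and 12, and at 54.6, 35.9, 44.1 and 39.3 in cFos, higher in each clone and overlapping between the arms (adjusted p = 0.244). Nfe2l1, a relative of NRF2, was at 67.7 ± 11.7 FPKM in Luc and 85.1 ± 12.7 in cFos. The genes for the ligase that marks NRF2 for degradation did not pass either, with Keap1 at 15.5 ± 3.91 and 15.3 ± 3.39, Cul3 at 51.2 ± 3.88 and 54.2 ± 5.56, and Rbx1 at 47.6 ± 5.33 and 42.2 ± 1.06. Sqstm1, the autophagy receptor that binds KEAP1, was at 187 ± 57.3 and 256 ± 70.8.

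Of the transcription factors that share the element, Bach1 was at 11.3 ± 3.69 FPKM in Luc and 10.4 ± 0.599 in cFos. Bach2 was at 1.20 ± 0.212 and 2.08 ± 0.377, with arms that did not overlap (adjusted p = 0.114). The small MAF genes were at 6.15 ± 0.783 and 4.26 ± 1.66 (Maff), 10.3 ± 1.76 and 13.6 ± 3.85 (Mafg) and 5.397 ± 1.32 and 7.49 ± 1.27 (Mafk). Btrc and Gsk3b, of the KEAP1-independent route of NRF2 degradation, were at 5.30 ± 0.934 and 3.84 ± 0.313 and at 17.6 ± 2.96 and 16.9 ± 1.73. Btrc was lower in each clone with no overlap (adjusted p = 0.173), and Dpp3, which binds KEAP1, was at 30.3 ± 5.64 and 22.8 ± 2.97.

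Among 24 tested other targets of NRF2, 1 rose, none fell and 23 did not pass, with a median log2 difference of 0.24. That median was 0.11 without Luc 8 and 0.15 without cFos 2. In this list 9 genes lay under an unadjusted p of 0.05 in limma, beside 20.1% of genes tested. There were 11 higher and 2 lower in cFos in all 4 clones, beside 15.3% and 20.9%. The arms did not overlap for 4 that were higher and 0 that were lower, beside 5.86% and 7.8%. The gene that rose was Srxn1, sulfiredoxin, which repairs overoxidised peroxiredoxins. It was at 20.6, 32.6, 15.6 and 21.1 FPKM in Luc from clones 2, 4, 8 and 12, and at 55.5, 44.6, 51.4 and 34.6 in cFos, higher in each clone with no overlap (log2 difference 1.06, SE 0.23, limma adjusted p = 0.0324). Its adjusted p was 0.0533 to 0.104 without Luc 2, Luc 8, Luc 12, cFos 2, cFos 4 or cFos 8, and 0.0683 with no filter on low genes. Fth1 and Ftl1, the ferritin subunits, were at 1655 ± 249 and 1425 ± 277 FPKM in Luc and 1615 ± 381 and 1693 ± 634 in cFos, and the peroxiredoxin gene Prdx1 at 330.2 ± 43.2 and 391 ± 50.7. Ugt1a6a, a glucuronosyltransferase gene, passed only with the clone as a block (7.31 ± 1.91 and 13.9 ± 6.17 FPKM, adjusted p = 0.0206), and it is named after its value was seen.

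Of 13 tested other glutathione transferases and related membrane enzymes, 1 fell, none rose and 12 did not pass. Gstt1, a theta-class transferase, fell from 88.6, 29.4, 37.8 and 31.97 FPKM in Luc from clones 2, 4, 8 and 12 to 18.9, 14.98, 12.7 and 13.4 in cFos, lower in each clone with no overlap (log2 difference -1.48, SE 0.32, limma adjusted p = 0.0330). Its adjusted p was 0.0529 to 0.0892 without Luc 8, cFos 2, cFos 4, cFos 8 or cFos 12, and 0.0760 with no filter. Gstp1 and Gstp2, near-identical pi-class genes between which the split of reads is uncertain, were at 210 ± 26.9 and 61.7 ± 11.7 FPKM in Luc and 246 ± 28.1 and 68.2 ± 7.54 in cFos. Blocked by clone, 2 rose, Gstm7 (adjusted p = 0.0208) and Gsto2 (0.0452), both named after their values were seen, at 1.78 ± 1.29 and 0.941 ± 0.434 FPKM in Luc and 3.53 ± 1.99 and 2.07 ± 0.954 in cFos. The log2 difference of Gstm7 was 0.87, and 0.57 without Luc 8.

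Of 21 tested genes of glutathione synthesis and turnover, 1 fell, none rose and 20 did not pass. Glrx, glutaredoxin, which reduces proteins joined to glutathione, fell from 68.0, 30.6, 41.6 and 30.4 FPKM in Luc from clones 2, 4, 8 and 12 to 18.9, 17.8, 14.6 and 15.1 in cFos, with no overlap (log2 difference -1.26, SE 0.25, limma adjusted p = 0.0219). Its adjusted p was 0.0530 to 0.0634 without cFos 2, cFos 4, cFos 8 or cFos 12, and 0.0529 with no filter. The most abundant of the list that did not pass were Slc25a39, which carries glutathione into mitochondria, at 58.4 ± 6.93 and 64.0 ± 7.97 FPKM, the amino acid transporter subunit Slc3a2 at 59.2 ± 20.6 and 60.1 ± 10.5, and the peptidase Lap3 at 56.5 ± 7.49 and 55.4 ± 9.42.

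Blocked by clone, 3 genes of that list rose and 2 fell, Glrx again among the falls. Cth, the enzyme that makes cysteine from cystathionine, was at 3.11, 2.52, 1.46 and 14.0 FPKM in Luc from clones 2, 4, 8 and 12, and at 13.0, 8.86, 9.88 and 41.7 in cFos (adjusted p = 0.00448 with the block and 0.149 without). It was the 1 gene of the 7 lists that passed the F test of the clones (adjusted p = 0.0389), with its highest values in clone 12. Hagh, the glyoxalase that frees glutathione, was at 14.4 ± 4.49 and 28.1 ± 5.69 FPKM (adjusted p = 0.00930 with the block), and passed without it when libraries were scaled to a common median. Chac1, which degrades glutathione, was at 7.66 ± 5.20 and 16.8 ± 5.76 (0.0208), and Dpep1, a dipeptidase of glutathione breakdown, at 59.4 ± 56.0 and 17.97 ± 10.4 (0.0246). The Luc mean of Dpep1 rests on Luc 8, at 142 FPKM beside 18.4 to 39.3 in the others, and without it the log2 difference went from -1.43 to -0.87. Without Luc 8 that of Chac1 went from 1.27 to 0.78. These 4 are named after their values were seen.

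Of 21 tested genes of peroxide removal and the thioredoxin system, Srxn1 rose, none fell and 20 did not pass, with a median log2 difference of -0.03 that ran from -0.09 to 0.01 with single libraries left out. Prdx1, the dismutase gene Sod1 and the thioredoxin gene Txn1 were the most abundant of these 20, Sod1 at 317 ± 37.3 FPKM in Luc and 299 ± 44.8 in cFos and Txn1 at 263 ± 56.9 and 348 ± 37.7. Gpx3, the secreted glutathione peroxidase, was at 25.9, 126, 25.8 and 3.44 FPKM in Luc from clones 2, 4, 8 and 12, and at 1.21, 4.85, 3.18 and 0.949 in cFos. It was lower in each clone and fell with the clone as a block (adjusted p = 0.0132, and 0.0842 without the block), and it too is named after its values were seen.

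Heme and iron genes gave no call in either model, beside 5.55% of genes tested with the virus alone and 8.79% with the block. Of these 11 genes, 0 lay under an unadjusted p of 0.05, beside 20.1% of genes tested. Slc48a1, a heme transporter, was at 39.9 ± 15.6 FPKM in Luc and 55.4 ± 8.36 in cFos. Of 10 genes of the ATF4 response to amino acid and endoplasmic reticulum stress, 0 passed with the virus alone, beside the same 5.55%. Under an unadjusted p of 0.05 lay 2 of them, beside the same 20.1% of genes tested. With the block 2 of the 10 rose, beside 4.51% of genes tested. They were Chac1 and Trib3, an inhibitor of AKT (7.53 ± 5.98 and 14.9 ± 4.57 FPKM, limma adjusted p = 0.0487), Trib3 named after its values were seen. The log2 difference of Trib3 went from 1.23 to 0.75 without Luc 8. Atf4 was at 120 ± 33.0 and 150 ± 29.9, and Psat1 and Phgdh, of serine synthesis, at 100 ± 60.4 and 134 ± 39.5 and at 88.8 ± 54.8 and 125 ± 16.9. The median log2 difference was 0.57 in the ATF4 list, beside -0.06 over all genes tested, and 0.21 without Luc 8 and 0.85 without Luc 12. In the heme and iron list it was -0.05, and it ran from -0.16 to 0.03 with single libraries left out.

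**Figure D4:**
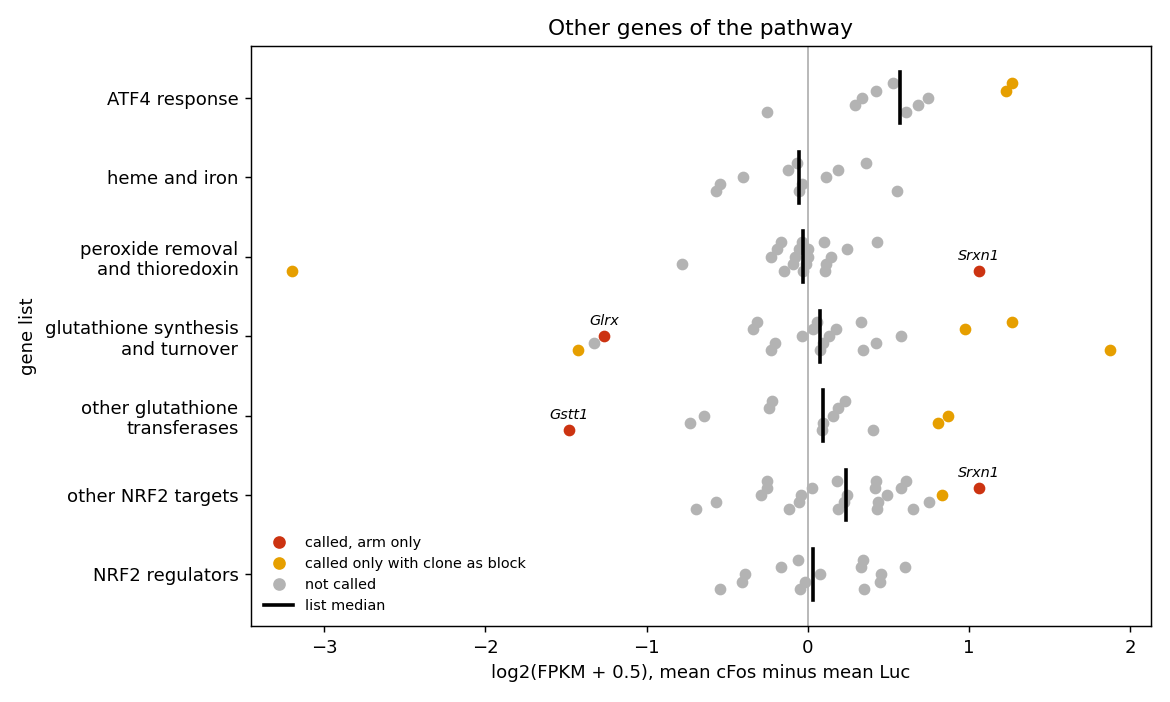
Mean log2(FPKM + 0.5) in cFos minus that in Luc (horizontal axis) for the tested genes of the 7 lists, 1 point per gene, with the list median as a black bar. Red points passed limma with the virus alone (Srxn1, in 2 lists, Gstt1 and Glrx), orange points passed only with the clone as a block, and the far left point is Gpx3 at -3.20.

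The genes whose values over the 8 libraries were most like those of Mgst3 and Mgst1, the members with the largest differences, were looked up among 6178 genes with a mean of at least 10 FPKM. For Mgst3 they were Pde2a, a cyclic nucleotide phosphodiesterase (Pearson r = 0.960 over 8 libraries), Itgad, an integrin subunit (0.954), and Hsd3b7, of bile acid synthesis (0.951). Itgad reached the mean of 10 FPKM only through cFos 8, at 67.4 FPKM beside at most 6.65 in the other 7 libraries. Pde2a ran from 6.34 FPKM in Luc 12 to 105 in cFos 8, the same libraries as the lowest and highest of Mgst3. For Mgst1 they were Znrd1, an RNA polymerase I subunit (0.991), Stom, the membrane protein stomatin (0.976), and Fam13b (0.972). Znrd1 covered a narrow range, 20.3 to 27.6 FPKM, where Mgst1 went from 57.6 to 362. These correlations describe 8 libraries that share clones and arms. None of the 6 genes passed limma with the virus as the only term, a model that Mgst3 and Mgst1 did not pass either. Their results with the clone as a block are not given here. Pde2a, Itgad and Hsd3b7 were each higher in cFos in every clone. Fam13b was lower in every clone, and Znrd1 and Stom differed in direction between clones.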

How the data were processed

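The data are polyadenylated RNA libraries, 1 per clone and virus. The tools named in the submitters' processing notes are TopHat, Cufflinks and CASAVA 1.8.2, with mm9 as the build; other tool versions are not given there. The deposited FPKM values, with the authors' confidence limits and coverage signal, are normalized per transcript length and per library, so no count test was run and read depth is known only as coverage times length. The deposited coverage was used to describe precision and depth.

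The tables hold 30769 transcript entries each. RefSeq names were matched for 30227 of them and GENCODE names for 180, 362 had no symbol, and FPKM was summed by symbol to 23500 genes; 3 genes were left out for a failed status. Genes of at least 1 FPKM in at least 4 libraries (11162) were fitted with limma 3.58.1 in R 4.3.3 on log2(FPKM + 0.5), with Benjamini-Hochberg adjustment over all of them and a threshold of 0.05. A fold change on this scale understates that of low genes. The groups were read from the sample labels. With 1 library per clone and virus, p-values of the model of virus alone set the difference between arms against the spread between clonal lines. With the clone as a block, they set it against how unlike the cFos and Luc differences were across clones, together with variation between libraries. Both libraries of a clone come from the same line, and their deviations from the arm means correlated at 0.174, 0.593, 0.349 and 0.437 in clones 2, 4, 8 and 12, so the clone is a true block, and its values stand beside the results it changes. Scripts were tested on simulated data. Tables and plots used Python 3.11.15, pandas 2.3.3, numpy 2.4.6 and matplotlib 3.10.9.

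The members and gene lists were chosen with earlier results of these data known. Named genes are the members, Fos, the regulators of NRF2, up to 4 called genes and the 3 most abundant uncalled genes of each other list, and the 3 genes most like each of the 2 members with the largest differences. Marker genes were a check of cell type, and those named from them were chosen after their values were seen. Positions are mm9, and promoter windows are RefSeq's on GRCm38.p6.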

Additional observations from a re-analysis of the deposited data

Results flagged for a closer look

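In 26 groups of 4 libraries examined for a library far from the others, 3 had one by Dixon's 95% limit, where chance gives about 1 in 20. Gclc in Luc 8 was at 6.18 FPKM, below the other Luc libraries at 11.0 to 11.3. Nqo1 in cFos 8 was at 12.1 FPKM, above the other cFos libraries at 5.42 to 6.49. Gstt1 in Luc 2 was at 88.6 FPKM, above the other Luc libraries at 29.4 to 37.8.

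In both Gsta4 and Gclc, clone 8 differed between cFos and Luc in the opposite direction to the other 3 clones by at least 1.5-fold. The log2 difference in clone 8 was -1.73 for Gsta4, with 0.24 to 1.82 in the others, and 0.78 for Gclc, with -0.36 to -0.17 in the others. With 1 pair of libraries per clone these differences between clones were not tested.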

How the results depend on the processing

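Over all genes, 326 were higher and 293 lower in cFos. With the clone as a replicate block these were 503 and 478, and leaving out 1 library gave 150 to 319 higher and 85 to 295 lower. With no filter on low values 175 were lower. Of the pathway genes, 1 was higher and 2 lower; the replicate block gave 8 and 4, no filter 0 and 0, scaling to a common median 2 higher, and leaving out 1 library 0 to 1 higher and 0 to 3 lower. Members called were 0, with 2 under the replicate block and 0 in each fit that left out 1 library. The block changed no other call of a member. For the clones, 54 genes passed, with 0 under no filter and 6 at a minimum of 5 FPKM, and 1 member passed, with 0 under no filter. Small differences turned direction when 1 library was left out. Mgst2 ran from -0.026 (without Luc 12) to 0.230 (without Luc 8). Gsta4 ran from -0.121 (without Luc 2) to 0.662 (without Luc 8), with -0.003 without Luc 12 and -0.031 without cFos 4. Gclc ran from -0.186 (without Luc 8) to 0.086 (without Luc 12), with -0.040 without cFos 8. Fits that leave out a library test fewer samples, and otherwise the cause was not tested. Among members with 1 entry the authors' limits were widest for Mgst2, 14.9 to 19.4% of the value at a coverage of 48.9 to 88.2, and 4.76 to 7.20% for Gclc at a coverage of 49.2 to 110.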

Other observations

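Luc 8 held the lowest value of the 4 Luc libraries in 55 of the 104 tested genes of the 7 pathway lists, 52.9%, and in 37.1% of all genes tested. It did so in 9 of 10 genes of the ATF4 list and in 16 of 24 other NRF2 targets. Psat1, of serine synthesis, was at 34.3 FPKM there and at 78.0 to 178 in the other Luc libraries, and Chac1 at 1.97 and at 6.39 to 14.5. This count was made after the values were seen and was not tested.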
